A study of Mus musculus with 8 samples.

Results

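The cells described here are loop of Henle cells of the mouse kidney, 1045 of 90855 cells within the quality limits (1.15%) and of 120281 barcodes in all. They were chosen by their counts of marker genes. A cell needed more than 300 genes, fewer than 20000 counts and less than 25% mitochondrial counts, at least 5 counts of *Slc12a1*, *Umod*, *Egf*, *Erbb4* and *Enox1* together, and at least 2 counts of *Slc12a1* and *Umod* together. Cells with more than 1 count of *Slc12a3* and *Aqp2* (distal tubule and collecting duct), of the 3 C1q genes (macrophages), or of *Flt1*, *Pax5* and *Themis* (endothelium, B cells and T cells) were left out. The levels of these rule genes chose the cells and are therefore given as a description.

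Kidneys of male C57BL/6 mice were taken after ischemia-reperfusion injury (IRI) of 1 kidney, from mice given the spleen tyrosine kinase (SYK) inhibitor entospletinib or its vehicle DMSO, at days 1, 7 and 14, and from mice with untouched kidneys (control). Each of the 7 conditions was 1 pool of 3 mice, enriched for live leukocytes by sorting on a viability dye and on scatter, so tubule cells are cells that passed a gate set for leukocytes. Fixed cells were barcoded and divided over 8 sublibraries, which are technical portions of the same pools. No test between conditions can therefore be made: the standard deviation (SD) given with a value is the one over the 8 sublibraries, intervals are exact 95% intervals that cover counting error alone, and no p-value is given. Levels are counts of a gene per 1000000 counts in all members of a condition (CPM).

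The thick ascending limb is the part of the loop of Henle that reabsorbs salt without water and so dilutes the tubular fluid and builds the medullary osmotic gradient. Salt enters from the lumen through the cotransporter NKCC2 (*Slc12a1*), potassium is recycled through ROMK (*Kcnj1*), and sodium is pumped out by the Na/K-ATPase (with *Atp1b1* and *Fxyd2* among its subunits). The segment makes uromodulin (*Umod*), the most abundant protein of normal urine, and epidermal growth factor (*Egf*). It uses much oxygen in a poorly oxygenated zone of the kidney, and injured limb cells are a known source of lipocalin 2 (*Lcn2*, NGAL).

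The label was checked with genes the rule did not use. Of 18 further genes of the thick ascending limb, all 18 were higher in the members than in all other cells and 16 were at least 10-fold higher. Those other cells are mostly leukocytes, and in control the 18 genes summed to 4322 CPM in the members and 3486 CPM in distal tubule and collecting duct cells, with 14 genes higher in the members and 4 higher in distal cells. *Kcnj1* (398 and 433 CPM) and *Tmem52b* (293 and 764 CPM) were among these 4, while *Cldn16*, *Cldn19*, *Tmem207*, *Irx1* and *Irx2* had 0 counts in the distal cells of control. Leading the 20 genes with the highest fold over other cells was *Tmem207*, at 124 against 0.655 CPM (189-fold). *Gp2*, *Slc5a1*, *Casr*, *Sim2*, *Stk32b*, *Ptger3*, *Car15*, *Slc9a3* and *Kng2* were also among these 20. Thin limb genes had a summed level of 57.9 to 293 CPM by condition, and *Slc14a2*, a urea transporter of the thin limb and the inner medulla, was seen in 22 members. Summed levels were 55.1 to 140.0 CPM for endothelial markers, 0 to 114 CPM for stromal markers and 148 to 789 CPM for distal tubule and collecting duct markers. *Slc12a1* counts were also found in 8.73% of leukocytes of control (7410 cells, each with at least 5 counts of general leukocyte markers), and whether these are free transcripts or mixed barcodes was not tested.

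The median member held 4047 counts in control, 2863, 5012 and 3759.5 counts on the 3 days of vehicle, and 3079, 4282 and 1742 counts on those of entospletinib. Leukocyte transcripts were found in many of them. At least 2 counts of 8 general leukocyte markers (*Ptprc*, *Dock2*, *Cd53*, *Laptm5*, *Coro1a*, *Arhgap15*, *Srgn* and *Rac2*) were present in 33.0% of members in control, 53.6% in vehicle day 1 and 39.6% with entospletinib at day 1, and in 21.6% to 34.8% at the later days. Of the members, 4 shared their barcode combination with another member in another sublibrary, and 227 (21.7%) with any other barcode, against 23.8% of all barcodes.

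Promoters are shown for 2 genes that differed between conditions, *Tmem207* and *Acadm*, with a motif searched in 3 of the lists described below. AAGGTCA is the core of the motif of the nuclear receptors *Esrrb* and *Esrrg*. Other nuclear receptors share this core, and no binding was measured. Levels of *Esrrb* and a ratio of *Esrrg* at day 1 are given below. The 250 bases before the RefSeq start were searched on both strands. Of 55 genes in the lists of thick ascending limb genes, salt transport and oxidative metabolism, 41 had a promoter in the table, and 4 of these (9.76%: *Acadm*, *Ckmt1*, *Kcnj16* and *Tmem207*) held the letters, against 4.70% of 27025 genes and 4.08% of 32851 windows. The match is a description and not a site. The 2 windows below are on GRCm38.p6, 5′ to 3′ on the gene's strand (minus for both), with the match, which lies on the opposite strand and so reads TGACCTT, in capitals. The window of *Tmem207*, the gene with the highest fold over other cells, is chr16:26526772-26527021, and that of *Acadm*, which encodes an enzyme of fatty acid oxidation, is chr3:153944644-153944893.
Tmem207: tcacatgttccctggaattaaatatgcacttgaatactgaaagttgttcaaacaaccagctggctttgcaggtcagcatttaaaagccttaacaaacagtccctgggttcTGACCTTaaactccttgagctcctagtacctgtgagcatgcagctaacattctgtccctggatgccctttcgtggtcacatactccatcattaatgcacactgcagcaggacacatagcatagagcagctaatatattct
Acadm: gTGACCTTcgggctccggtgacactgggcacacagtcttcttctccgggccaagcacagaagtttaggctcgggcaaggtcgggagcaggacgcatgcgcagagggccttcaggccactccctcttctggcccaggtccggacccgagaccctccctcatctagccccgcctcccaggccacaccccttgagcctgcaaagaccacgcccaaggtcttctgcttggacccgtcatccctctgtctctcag

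Loop of Henle cells made up 1.65% of cells within the limits in control (185 of 11205, 95% interval 1.42 to 1.90%). In vehicle the share was 0.938% at day 1 (211 of 22489), 0.736% at day 7 (45 of 6110) and 0.382% at day 14 (66 of 17261, interval 0.296 to 0.486%). With entospletinib it was 1.17% at day 1 (164 of 14041), 2.68% at day 7 (204 of 7605) and 1.40% at day 14 (170 of 12144, interval 1.20 to 1.62%). Vehicle at day 14 was the lowest and entospletinib at day 7 the highest of the 7. The log2 ratio of shares was -0.82 (SD 0.374, same direction in 7 of 8) sublibraries for vehicle day 1 over control, -2.11 (SD 0.601, same direction in 8 of 8) for vehicle day 14 over control, 0.32 (SD 0.406, same direction in 6 of 8) for entospletinib over vehicle at day 1 and 1.87 (SD 0.690, same direction in 8 of 8) for entospletinib over vehicle at day 14. The share is one of a leukocyte-enriched sort and moves with every other class: counted among loop, distal and proximal tubule cells alone, vehicle over control turned to 0.61 at day 1 and 0.88 at day 14, and entospletinib over vehicle was 0.81 and 0.11. Proximal tubule cells numbered 731 in control (6.52% of cells), 139, 94 and 73 in vehicle (0.618%, 1.54% and 0.423%), and 87, 230 and 173 with entospletinib. Distal tubule and collecting duct cells numbered 113 in control, 419, 21 and 61 in vehicle, and 89, 141 and 135 with entospletinib.

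**Figure D1:**
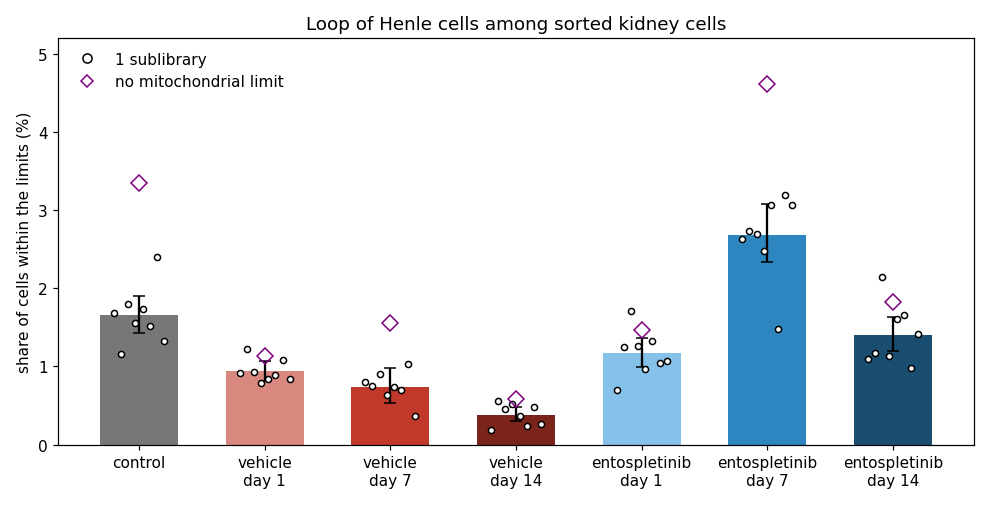
Share of loop of Henle cells among cells within the limits (y axis, %) in the 7 conditions. Bars are the share with its exact 95% interval, open circles the 8 sublibraries and diamonds the share when the mitochondrial limit is not applied; vehicle at day 14 lies lowest at 0.382% and entospletinib at day 7 highest at 2.68%.

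The mitochondrial limit removed many cells that match the marker rule, and it did so unequally. Cells above the limit that matched numbered 266 in control (59.0% of all matches), 53, 58 and 37 in vehicle and 47, 221 and 58 with entospletinib, 740 in all. Without the limit the share was 3.35% in control, 1.14%, 1.55% and 0.587% in vehicle and 1.47%, 4.62% and 1.83% with entospletinib. At the edges of the rule, the list of thick ascending limb genes outside the rule summed to 699 CPM in 62 cells with a marker sum of 5 (inside) and 559 CPM in 76 cells with a sum of 4 (outside), against 3436 CPM in all members. Cells with 20 to 25% mitochondrial counts (163, inside) had 3368 CPM of the list and those with 25 to 30% (149, outside) 3104 CPM.

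Claudins, which form the paracellular channels of the segment, were seen in part of the members. Claudin 10 (*Cldn10*), a sodium-selective claudin, was seen without *Cldn16* or *Cldn19* in 106 members, and *Cldn16* or *Cldn19*, the claudins of calcium and magnesium reabsorption, without *Cldn10* in 213. Both were seen in 48 and neither in 678. Members with *Cldn16* or *Cldn19* alone had 532 CPM of the calcium-sensing receptor *Casr* against 191 CPM in those with *Cldn10* alone, and 438 against 152 CPM of the parathyroid hormone receptor *Pth1r*. The prostaglandin receptor *Ptger3* was the other way round, at 122 against 433 CPM. These values pool all conditions, and within control *Casr* was 704 against 296 CPM.

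The macula densa, the plaque of limb cells that senses tubular salt, expresses *Nos1* and *Pappa2*. At least 2 counts of these were found in 62 members (5.93%), of which 8 were in control and 24 in entospletinib day 7, and 3 to 14 in each other condition. They had 106 CPM of *Umod* and 101 CPM of *Egf*, against 2728 and 3831 CPM in the other members, and 9442 against 5317 CPM of *Slc12a1*. *Robo2*, a receptor for Slit guidance proteins, was at 3309 against 37.4 CPM. Their share of members was 4.32% in control, 2.84%, 6.67% and 4.55% in vehicle, and 2.44%, 11.8% and 8.24% with entospletinib.

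Genes were compared between conditions with at least 50 members each, where a gene had at least 100 CPM in the higher condition and at least 50 counts over both. A relative log2 ratio is the log2 ratio of CPM after adding 0.5 counts, minus its median over the genes compared, and a gene counts as past 2-fold at a ratio of 1 or more either way. A gene low in one condition was compared only through a high level in the other, so the count of genes of a list that passed describes them and does not stand for the whole list. In brackets are its SD over the 8 sublibraries and the number of sublibraries with the same direction. The 5 highest and 5 lowest genes named are those past 2-fold with the same direction in all 8. At day 1 in vehicle against control, 2090 genes were compared, and 345 (16.5%) were higher and 309 (14.8%) lower past 2-fold (31.3% either way). Of the 2090, 499 were past 2-fold with the same direction in all 8 sublibraries.

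Many of the segment's genes that could be compared were lower at day 1 after IRI. Of the 18 thick ascending limb genes outside the rule, 11 were compared, 1 higher and 8 lower past 2-fold, with a median of -1.70. In members with 0 or 1 leukocyte marker count the median was -1.10. The members of vehicle day 1 also lay nearer the marker minimum of the rule, with a median of 11 counts of the 5 rule markers against 75 in control, and the part of this in the difference was not tested. Over the settings tried, a marker sum of at least 10 among them, the median of this list ran from -1.81 to -1.10. *Kcnj1* was at 398 CPM in control, 140.4 (day 1), 208 (day 7) and 179 CPM (day 14) in vehicle, and 141 (day 1), 378 (day 7) and 345 CPM (day 14) with entospletinib. Its relative log2 ratio in vehicle day 1 over control was -1.71 (SD 0.88, 8 of 8). Its sublibrary values were 335 to 486 CPM in control and 29.4 to 196 CPM in vehicle day 1. *Casr* was at 418 CPM in control, 111 (day 1), 268 (day 7) and 141 CPM (day 14) in vehicle, and 187 (day 1), 476 (day 7) and 157 CPM (day 14) with entospletinib. It was -2.12 (SD 0.86, 8 of 8) against control. *Kng2*, a kininogen gene, was at 1336 CPM in control, 278 (day 1), 892 (day 7) and 445 CPM (day 14) in vehicle, and 493 (day 1), 1333 (day 7) and 1118 CPM (day 14) with entospletinib, with a ratio of -2.48 (SD 0.78, 8 of 8). *Tmem207* had 246 CPM (95% interval 213 to 281) in control and 13.7 CPM (95% interval 7.31 to 23.5) in vehicle day 1 (-4.32 (SD 1.98, 8 of 8)). *Defb1*, an antimicrobial defensin of this segment, went the other way, from 91.4 to 497 CPM (2.22 (SD 0.68, 8 of 8)), and *Mal*, a protein of apical sorting, stayed within 2-fold at 304 and 307 CPM.

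In the list of salt transport and its kinases, counted without *Slc12a1*, 11 were compared, 0 higher and 7 lower past 2-fold, with a median of -1.45. Of divalent cation and paracellular transport, without the rule gene *Umod*, 4 were compared, 0 higher and 1 lower past 2-fold, with a median of -0.13, the lower gene being *Casr*. The regulatory subunit *Fxyd2* was at 1098 CPM in control, 465 (day 1), 1100.4 (day 7) and 296 CPM (day 14) in vehicle, and 646 (day 1), 1213 (day 7) and 1222 CPM (day 14) with entospletinib, with a ratio of -1.45 (SD 0.36, 8 of 8) at day 1. The sodium-proton exchanger *Slc9a3* had a ratio of -1.86 (SD 0.74, 8 of 8), the kinase *Wnk4* of -1.84 (SD 0.94, 8 of 8) and the basolateral potassium channel *Kcnj10* of -2.24 (SD 1.62, 8 of 8). The beta subunit *Atp1b1* was within 2-fold, at -0.97 (SD 0.56, 8 of 8). Of the rule genes, *Slc12a1* was at 9556 CPM in control, 969 (day 1), 5154 (day 7) and 3036 CPM (day 14) in vehicle, and 1400.2 (day 1), 9405 (day 7) and 7259 CPM (day 14) with entospletinib, and *Egf* at 8246 CPM in control, 141 (day 1), 2365 (day 7) and 234 CPM (day 14) in vehicle, and 585 (day 1), 6353 (day 7) and 3838 CPM (day 14) with entospletinib. *Umod* lay between 1979.6 and 2986 CPM in all 7 conditions.

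**Figure D2:**
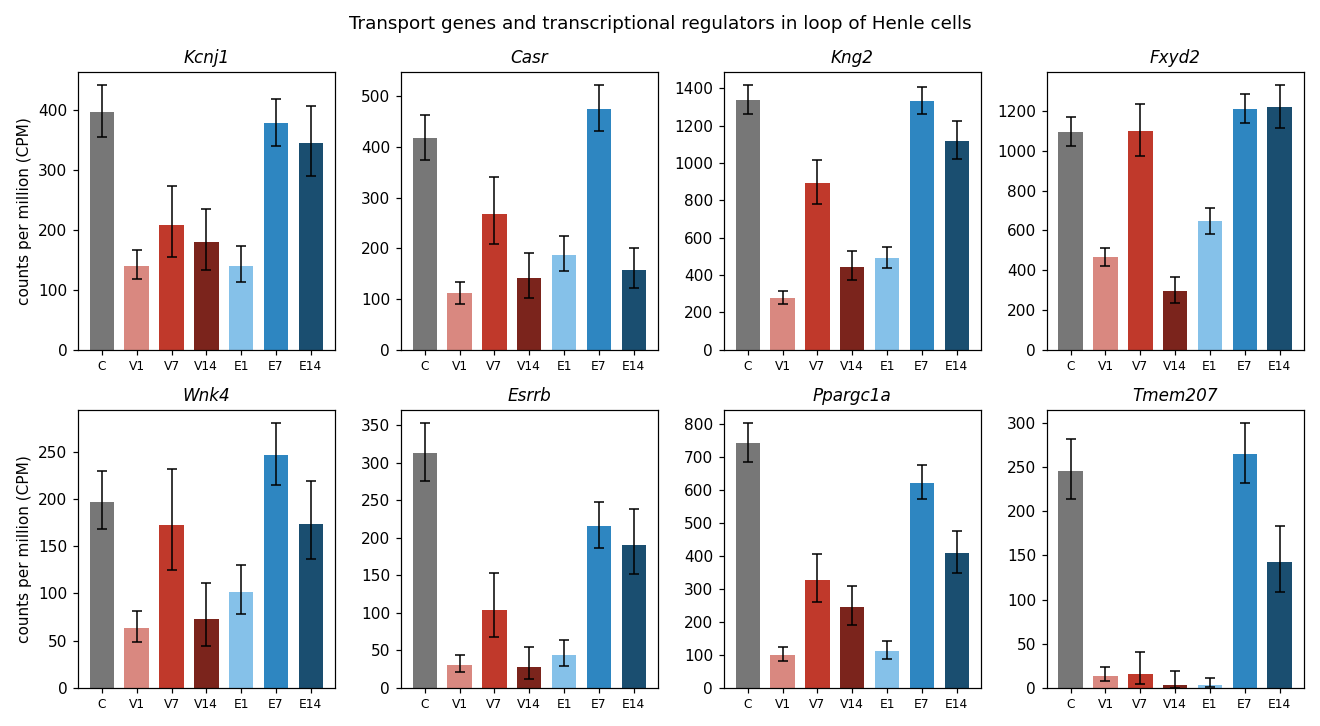
Level (y axes, CPM) of transport genes and regulators in loop of Henle cells of control (C), vehicle (V) and entospletinib (E) at days 1, 7 and 14. Bars are pooled counts of all members with exact 95% intervals; *Esrrb* is at 312 CPM in control, 27.6 CPM in vehicle day 14 and 191 CPM with entospletinib at day 14.

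Some regulators of epithelial identity and genes of oxidative metabolism were lower, and the other compared genes of both lists were within 2-fold. Of the kidney epithelial transcription factors, 11 were compared, 0 higher and 5 lower past 2-fold, with a median of -0.70 (-0.30 in members with 0 or 1 leukocyte marker count). *Esrrb* was at 312 CPM in control, 30.6 (day 1), 104 (day 7) and 27.6 CPM (day 14) in vehicle, and 43.6 (day 1), 215 (day 7) and 191 CPM (day 14) with entospletinib, with a ratio of -3.54 (SD 0.94, 8 of 8) at day 1, and *Esrrg* was -1.40 (SD 0.35, 8 of 8). *Ppargc1a*, the coactivator PGC-1alpha that drives mitochondrial biogenesis, was at 742 CPM in control, 100.3 (day 1), 328 (day 7) and 245 CPM (day 14) in vehicle, and 111 (day 1), 622 (day 7) and 408 CPM (day 14) with entospletinib (-3.09 (SD 0.64, 8 of 8)). Its sublibrary values were 501 to 1122 CPM in control and 51.4 to 178 CPM in vehicle day 1. *Tfcp2l1* was -1.33 (SD 0.82, 8 of 8) and *Mecom* -1.41 (SD 0.41, 8 of 8), while *Pax2*, *Pax8* and *Glis3* were within 2-fold. For oxidative metabolism, 13 were compared, 0 higher and 6 lower past 2-fold, with a median of -0.69. *Acadm* (-1.50 (SD 0.46, 8 of 8)), *Cpt1a* (-1.26 (SD 0.51, 8 of 8)) and *Ndufs1* (-1.14 (SD 0.61, 8 of 8)) were among the lower genes. The mineralocorticoid receptor *Nr3c2* was -2.12 (SD 0.78, 8 of 8), and the junction protein *Cgnl1* was -1.91 (SD 0.38, 8 of 8). In the list of glucocorticoid and mineralocorticoid response, 8 were compared, 2 higher and 3 lower past 2-fold, with a median of -0.52. In that of cilium, polarity and adhesion, 14 were compared, 0 higher and 4 lower past 2-fold, with a median of -0.63.

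Proximal tubule transcripts moved with this comparison, and their part in it was not tested. The summed level of proximal tubule markers in the members was 1376 CPM in control against 168 CPM in vehicle day 1 and 117 CPM in vehicle day 14, and in all other cells 1914, 277 and 167 CPM. All 5 of them that could be compared were lower at day 1. *Gatm* (creatine synthesis) and *Acsm2*, genes of the proximal tubule, were among the 5 lowest genes at day 1, from 116 to 6.33 CPM and from 259 to 21.1 CPM, and the other cells moved from 222 to 56.9 CPM for *Gatm*. The other 3 of the 5 lowest were *Tmem207*, the phosphatase inhibitor *Ppp1r1b* (-4.15 (SD 1.68, 8 of 8)) and the transporter *Abca13* (-3.99 (SD 1.07, 8 of 8)).

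Many of the injury genes that could be compared were higher at day 1. The 32 genes of the list of tubule injury and repair summed to 2015 CPM in control and 25849 CPM in vehicle day 1, most of it *Spp1*, and 16 were compared, 14 higher and 0 lower past 2-fold, with a median of 2.59. Distal tubule and collecting duct markers in the members summed to 322 CPM in control and 789 CPM in vehicle day 1. Only 1 of them could be compared, within 2-fold at 0.91, and their part was not tested. *Lcn2* was at 7.12 CPM in control, 553 (day 1), 68.0 (day 7) and 193 CPM (day 14) in vehicle, and 562 (day 1), 41.9 (day 7) and 41.0 CPM (day 14) with entospletinib. It was 5.95 (SD 1.18, 8 of 8) in vehicle day 1 over control, the highest gene of the comparison that kept its direction in all 8 sublibraries, and all other cells of vehicle day 1 held 111 CPM. *Spp1* (osteopontin) was at 765 CPM in control, 18297 (day 1), 4722 (day 7) and 5717 CPM (day 14) in vehicle, and 15357 (day 1), 2604 (day 7) and 3995 CPM (day 14) with entospletinib (4.36 (SD 0.86, 8 of 8)). Its sublibrary values were 245 to 2128 CPM in control and 9504 to 24838 CPM in vehicle day 1. Clusterin (*Clu*) was at 97.3 CPM in control, 2831 (day 1), 324 (day 7) and 1179 CPM (day 14) in vehicle, and 1546 (day 1), 419 (day 7) and 420.1 CPM (day 14) with entospletinib (4.64 (SD 1.72, 8 of 8)). *Sox4*, a transcription factor of developing and injured epithelium, was 1.93 (SD 0.54, 8 of 8), *Dcdc2a* 2.75 (SD 1.08, 8 of 8) and *Cd24a* 2.06 (SD 0.59, 8 of 8). *Havcr1* (KIM-1), an injury gene of the proximal tubule, had 0 counts in control, which allows up to 3.56 CPM. It was higher in vehicle day 1, at 22.2 CPM. *Vcam1*, another such gene, had 0 counts in control and 2.11 CPM in vehicle day 1. *Sox9* was at 0 counts in control, 24.3 CPM in vehicle day 1 and 31.0 CPM in vehicle day 14. The metallothioneins *Mt1* and *Mt2* were 2.56 (SD 0.73, 8 of 8) and 3.73 (SD 1.30, 8 of 8), in a list of metal and oxidant stress where 10 were compared, 7 higher and 1 lower past 2-fold, with a median of 1.26.

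**Figure D3:**
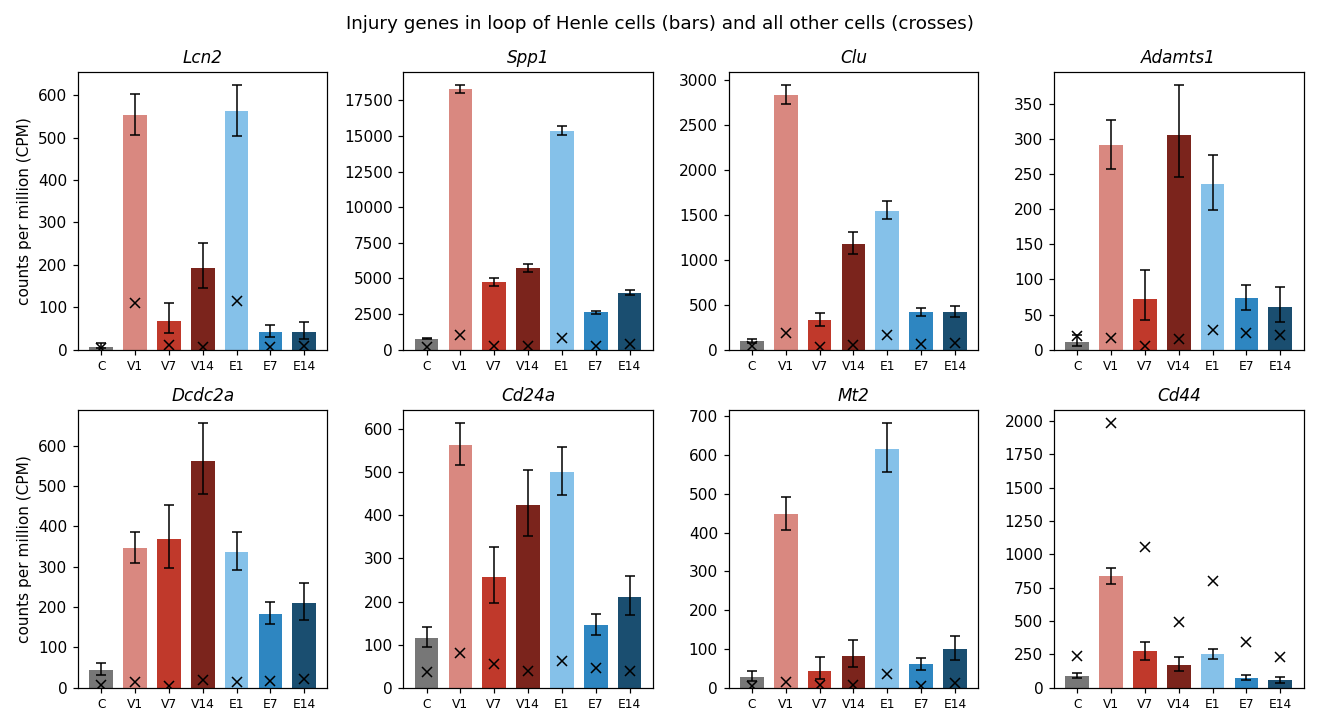
Level (y axes, CPM) of 8 genes in loop of Henle cells (bars with exact 95% intervals) and in all other cells (crosses) of control (C), vehicle (V) and entospletinib (E) at days 1, 7 and 14. *Lcn2*, *Spp1* and *Clu* exceed the other cells in the members at day 1, while *Cd44* is higher in the other cells in every condition.

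Many leukocyte genes were higher in the members at day 1 too. The 8 neutrophil markers summed to 97.3 CPM in control and 2352 CPM in vehicle day 1, and 6 of 7 general leukocyte markers compared were higher. Of the macrophage and monocyte markers, 6 were compared, 3 higher and 2 lower past 2-fold, with a median of 1.00, which turned to -0.25 without sublibrary s7. In the list of cytokines and chemokines of injured tubule, genes that leukocytes also express, 7 were compared, 7 higher and 0 lower past 2-fold, with a median of 1.90 (1.42 in members with 0 or 1 leukocyte marker count), and *Il1b* (3.29 (SD 0.42, 8 of 8)) and *Cxcl2* (4.49 (SD 1.22, 8 of 8)) were among them. The other 4 of the 5 highest genes were *Slc7a11*, *Csf3r*, *Sirpb1b* and *Chil3*, of which *Csf3r*, the receptor for granulocyte colony-stimulating factor, was at 4.75 and 258 CPM in the members and 601 CPM in the other cells. The 8 general leukocyte markers summed to 931 CPM in members of control and 2877 CPM in vehicle day 1, against 4659.9 and 7518 CPM in other cells. Restricted to members with 0 or 1 count of these markers (124 in control, 98 in vehicle day 1), *Csf3r* was at 13.7 CPM, *Slc7a11* at 16.4 CPM and *Il1b* at 131 CPM in vehicle day 1, the last against 41.8 CPM in control. *Lcn2* was then at 751 CPM, *Spp1* at 25614 CPM, *Clu* at 4145 CPM and *Kcnj1* at 199 CPM. The choice of members with few leukocyte counts by itself lowers leukocyte genes in them.

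*Syk*, the target of entospletinib, moved with the leukocyte genes. It was at 54.6 CPM in control, 355 (day 1), 108 (day 7) and 79.3 CPM (day 14) in vehicle, and 74.3 (day 1), 50.5 (day 7) and 48.3 CPM (day 14) with entospletinib, while the other cells held 348 to 839.8 CPM. Among members with 0 or 1 leukocyte marker count it was at 20.9 CPM in control, 19.1 CPM in vehicle day 1 and 25.0 CPM with entospletinib at day 1. Those members were chosen for few leukocyte counts, so these levels rest on few counts and no rise or fall is read from them. Of the *Syk* and adaptor list 8 were compared, 6 higher and 0 lower past 2-fold, with a median of 1.57 in vehicle day 1 over control.

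**Figure D4:**
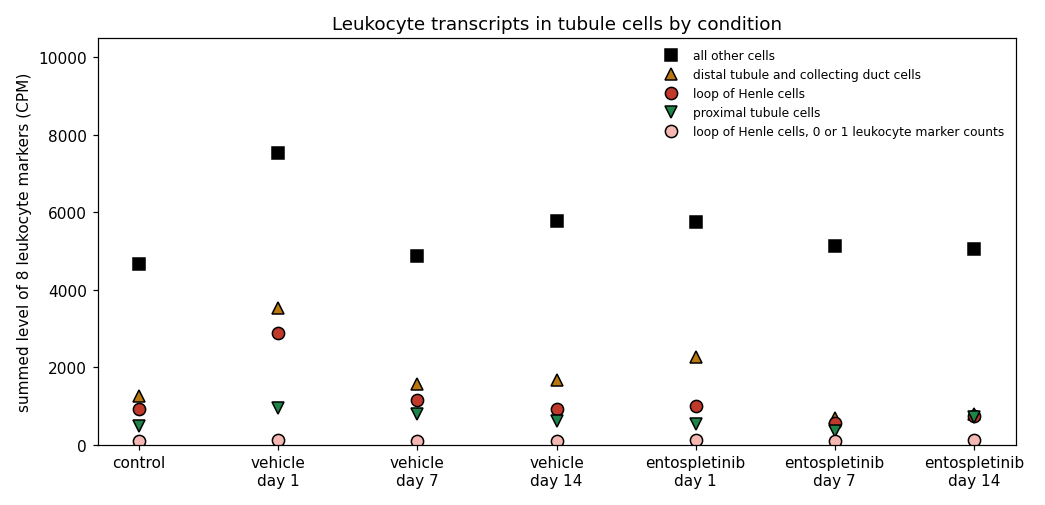
Summed level (y axis, CPM) of 8 general leukocyte markers by condition in all other cells (squares), distal tubule and collecting duct cells (up triangles), loop of Henle cells (dark circles), proximal tubule cells (down triangles) and loop of Henle cells with 0 or 1 marker count (light circles). Loop of Henle cells of vehicle day 1 lie at 2877 CPM, above all other conditions of the same cells.

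At day 14 in vehicle against control, 1853 genes were compared, and 129 (6.96%) were higher and 231 (12.5%) lower past 2-fold (19.4% either way). Part of the segment and transport genes were past 2-fold at this time as well: of the thick ascending limb genes 11 were compared, 0 higher and 7 lower past 2-fold, with a median of -1.19, and of the salt transport genes without *Slc12a1*, 11 were compared, 0 higher and 6 lower past 2-fold, with a median of -1.19 (-0.61 with *Slc12a1* in members thinned to 1500 counts, against -1.32 unthinned). Of divalent cation and paracellular transport, without *Umod*, 4 were compared, 0 higher and 1 lower past 2-fold, with a median of -0.22. *Kcnj1* was -1.19 (SD 0.78, 7 of 8), *Fxyd2* -1.93 (SD 0.92, 8 of 8), *Slc9a3* -2.36 (SD 0.80, 8 of 8) and *Esrrb* -3.46 (SD 1.04, 8 of 8). *Tmem207* had 1 count, at 3.45 CPM (95% interval 0.0872 to 19.2). The splicing factor *Rbfox1* (413 to 17.2 CPM), the protease *Pcsk6* (103 to 3.45 CPM) and *Wfdc15b* (221 to 13.8 CPM) completed the 5 lowest. In vehicle day 14, 3 counts amount to 10.3 CPM, so these low levels and their directions by sublibrary rest on few counts. For oxidative metabolism, 12 were compared, 0 higher and 7 lower past 2-fold, with a median of -1.09. Proximal tubule markers moved with this comparison, and their part was not tested: 5 were compared, 0 higher and 5 lower past 2-fold, with a median of -3.91.

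Of the injury list at day 14, 11 were compared, 9 higher and 0 lower past 2-fold, with a median of 1.85. *Lcn2* was 4.61 (SD 1.73, 8 of 8), *Clu* 3.54 (SD 1.44, 8 of 8), *Dcdc2a* 3.61 (SD 1.41, 8 of 8), *Sox4* 2.91 (SD 1.11, 8 of 8) and *Spp1* 2.85 (SD 1.23, 8 of 8). *Adamts1*, a secreted metalloprotease, was at 10.7 CPM in control, 291 (day 1), 72.0 (day 7) and 307 CPM (day 14) in vehicle, and 236 (day 1), 73.1 (day 7) and 60.4 CPM (day 14) with entospletinib (4.73 (SD 1.82, 8 of 8)). Ceruloplasmin (*Cp*), a copper carrier, had 3 counts in control and was at 3.56 CPM in control, 14.8 (day 1), 4.00 (day 7) and 165 CPM (day 14) in vehicle, and 9.69 (day 1), 57.0 (day 7) and 9.66 CPM (day 14) with entospletinib. *Prom1*, at 205 CPM in control, 189 CPM in vehicle day 1 and 441 CPM in vehicle day 14, was past 2-fold at day 14 (1.06 (SD 0.77, 7 of 8)). The leukocyte markers summed to 913 CPM in vehicle day 14 and 931 CPM in control.

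Day 7 in vehicle had 45 members and was not compared. Levels lay between those of control and vehicle day 1 for *Kcnj1*, *Casr*, *Kng2*, *Esrrb*, *Ppargc1a*, *Lcn2*, *Spp1* and *Clu*, and *Fxyd2* was at 1100.4 CPM against 1098 CPM in control. In an alternative without the mitochondrial limit, chosen after seeing the data, vehicle day 7 had 103 cells and control 451. Then 1863 genes were compared, of which 4.62% were higher and 5.21% lower past 2-fold, and of the injury list 8 were compared, 5 higher and 0 lower past 2-fold, with a median of 1.30, while of the thick ascending limb genes 12 were compared, 0 higher and 3 lower past 2-fold, with a median of -0.44. Proximal tubule markers moved with this comparison (7 were compared, 0 higher and 7 lower past 2-fold, with a median of -4.34), as did 2 neutrophil markers, both higher, and their part was not tested. In the cells above the limit alone, 5.08% of 1456 genes were higher and 11.4% lower past 2-fold, and of the injury list 6 were compared, 1 higher and 0 lower past 2-fold, with a median of 0.73. Of the thick ascending limb genes 11 were compared there, 0 higher and 2 lower past 2-fold, with a median of -0.46. All 7 proximal tubule markers compared were lower past 2-fold there, and their part was not tested. Entospletinib day 7 had 204 members, with *Kcnj1* at 378 CPM, *Ppargc1a* at 622 CPM, *Lcn2* at 41.9 CPM and *Clu* at 419 CPM, against 208, 328, 68.0 and 324 CPM in vehicle day 7. Without the mitochondrial limit, 1971 genes were compared between them, of which 2.13% were higher and 5.33% lower past 2-fold with entospletinib. Of the thick ascending limb genes 11 were compared, 2 higher and 0 lower past 2-fold, with a median of 0.53, and of the injury list 10 were compared, 0 higher and 3 lower past 2-fold, with a median of -0.27. Of the macrophage and monocyte markers 4 were compared, 0 higher and 3 lower past 2-fold, with a median of -1.30. Both neutrophil markers and 2 of 4 general leukocyte markers compared were lower, both proximal tubule markers compared were higher (median 1.64), and their part was not tested. In the cells above the limit alone the balance was the other way, with 7.96% of 1658 genes higher and 3.44% lower. There 2 macrophage and monocyte markers were compared, both within 2-fold, and both proximal tubule markers compared were higher (median 2.90), while of the thick ascending limb genes 12 were compared, 2 higher and 0 lower past 2-fold, with a median of 0.52 and of the injury list 9 were compared, 0 higher and 3 lower past 2-fold, with a median of -0.39.

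At day 1, entospletinib was compared with vehicle over 1930 genes, and 73 (3.78%) were higher and 173 (8.96%) lower past 2-fold (12.7% either way). The leading injury genes were within 2-fold, at 553 and 562 CPM of *Lcn2* (0.29 (SD 0.67, 6 of 8)), 18297 and 15357 CPM of *Spp1* (0.01 (SD 0.61, 5 of 8)), and 2831 and 1546 CPM of *Clu* (-0.61 (SD 0.67, 5 of 8)). In the injury list 18 were compared, 0 higher and 3 lower past 2-fold, with a median of 0.06, and the 3 lower genes were *Cd44*, *Vim* and *Plaur*, all higher in the other cells than in the members. Of the thick ascending limb genes 9 were compared, 3 higher and 0 lower past 2-fold, with a median of 0.70. The summed leukocyte markers were lower where these genes were higher, and in members with 0 or 1 leukocyte marker count the median was 0.34, with the list summing to 2822 CPM in vehicle and 3039 CPM with entospletinib, against 2049.6 and 2684 CPM in all members. In all members *Slc9a3* was at 106 and 302 CPM (1.78 (SD 1.41, 7 of 8)) and *Casr* at 111 and 187 CPM (1.02 (SD 0.58, 8 of 8)). *Kcnj1* was 0.27 (SD 0.76, 6 of 8) and *Ppargc1a* 0.42 (SD 1.00, 4 of 8), both within 2-fold.

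Part of the leukocyte genes were lower with entospletinib at day 1. All 7 general leukocyte markers compared were lower, the 8 markers summing to 2877 CPM in vehicle and 1005 CPM with entospletinib, with 3 of 6 neutrophil markers and 3 of 5 macrophage and monocyte markers compared lower past 2-fold and the others within it. The 5 lowest genes were *Chil3*, *Thbs1*, *Antxr2*, *Malt1* and *Igsf6*. *Thbs1* was at 1314 and 147 CPM in the members (-2.89 (SD 1.25, 8 of 8)) and at 2709 and 688 CPM in the other cells. Restricted to members with 0 or 1 leukocyte marker count, *Thbs1* was at 65.6 and 56.2 CPM. These members were chosen for few leukocyte counts. In them 106 of 1768 genes compared were past 2-fold, against 246 of 1930 in all members. Of the highest genes, *Peak1* was at 188 and 4047 CPM (4.69 (SD 0.79, 8 of 8)) but also at 395 and 4284 CPM in the other cells, and *Rpph1* and *Il31ra* moved in the other cells too, from 22.2 to 165 and from 97.0 to 564 CPM. *Car15*, a carbonic anhydrase among the 20 leading genes of the segment, was at 50.7 and 157 CPM (1.89 (SD 1.31, 8 of 8)), and *Plscr2* at 47.5 and 109.8 CPM.

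At day 14, entospletinib against vehicle gave 1768 genes compared, 154 (8.71%) higher and 98 (5.54%) lower past 2-fold (14.3% either way). Part of the transport genes were higher: of the thick ascending limb genes 10 were compared, 5 higher and 0 lower past 2-fold, with a median of 0.76, and of the salt transport genes without *Slc12a1*, 11 were compared, 6 higher and 0 lower past 2-fold, with a median of 1.03. The conditions differ in depth, and with members thinned to 1500 counts the salt transport median, with *Slc12a1*, was 0.56 against 1.04 unthinned. Thinning kept 55 of 66 vehicle members and 106 of 170 entospletinib members. Past 2-fold were 81 of 503 genes compared after thinning, against 252 of 1768 unthinned. Of divalent cation and paracellular transport, without *Umod*, 4 were compared, 0 higher and 0 lower past 2-fold, with a median of 0.22. *Tmem207* was at 3.45 CPM (95% interval 0.0872 to 19.2) in vehicle and 142 CPM (95% interval 108 to 184) with entospletinib. *Fxyd2* was 2.14 (SD 1.1, 8 of 8), *Kng2* 1.43 (SD 0.91, 7 of 8), *Wnk4* 1.34 (SD 1.21, 7 of 8) and *Kcnj1* 1.04 (SD 0.61, 7 of 8). For *Fxyd2* the sublibrary values were 61.2 to 498 CPM in vehicle day 14 and 615 to 1648 CPM in entospletinib day 14. *Casr* was within 2-fold, at 141 and 157 CPM against 418 CPM in control. *Esrrb* (2.81 (SD 1.14, 8 of 8)) and, from few counts in vehicle, *Rbfox1* (4.24 (SD 1.12, 8 of 8)) and *Wfdc15b* (3.31 (SD 1.03, 8 of 8)) were among the 5 highest. *Zbtb16*, a target of glucocorticoids, was also among them (2.98 (SD 1.11, 8 of 8)), and another glucocorticoid target, *Fkbp5*, was 2.00 (SD 1.88, 7 of 8). In the whole list of glucocorticoid and mineralocorticoid response 6 were compared, 2 higher and 1 lower past 2-fold, with a median of 0.19, and the lower gene was *Errfi1* (-1.18 (SD 1.95, 5 of 8)). For *Fkbp5* the other cells were at 73.8 CPM in vehicle and 472 CPM with entospletinib. *Vegfa*, an endothelial growth factor, was 2.48 (SD 0.74, 8 of 8). In its list, hypoxia and glycolysis, 8 were compared, 1 higher and 0 lower past 2-fold, with a median of 0.55.

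Several injury genes were lower with entospletinib at day 14. In the injury list 11 were compared, 0 higher and 6 lower past 2-fold, with a median of -1.18. Macrophage and monocyte markers moved with them, and their part was not tested: 3 were compared, 0 higher and 2 lower past 2-fold, with a median of -1.22, and the list of 15 summed to 1427 CPM in vehicle and 811 CPM with entospletinib. In members with 0 or 1 general leukocyte marker count, those sums were 456 and 433 CPM, and the injury median was -1.27, in fewer vehicle members (43) than the 50 asked for elsewhere. *Lcn2* was at 193 CPM in vehicle and 41.0 CPM with entospletinib (-2.10 (SD 2.09, 7 of 8)), *Clu* at 1179 and 420.1 CPM (-1.38 (SD 2.03, 6 of 8)), and *Sox4* at 289 and 86.9 CPM (-1.62 (SD 1.06, 8 of 8)). *Spp1* was within 2-fold, at 5717 and 3995 CPM. *Adamts1* (-2.22 (SD 0.80, 8 of 8)), *Samd5* (-1.90 (SD 1.72, 8 of 8)), *Ly6e* (-1.81 (SD 0.96, 8 of 8)), *Tiam1* (-1.67 (SD 0.87, 8 of 8)) and *Cp* (165 and 9.66 CPM) were the 5 lowest. For *Lcn2*, the sublibrary values of vehicle day 14 (58.5 to 529 CPM) and entospletinib day 14 (0 to 117 CPM) overlapped. Vehicle and entospletinib at day 14 are each 1 pool, and the shares of members differ between them (66 and 170 members, with 3759.5 and 1742 median counts). Vehicle day 14 enters both day 14 comparisons, so they share its values.

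**Figure D5:**
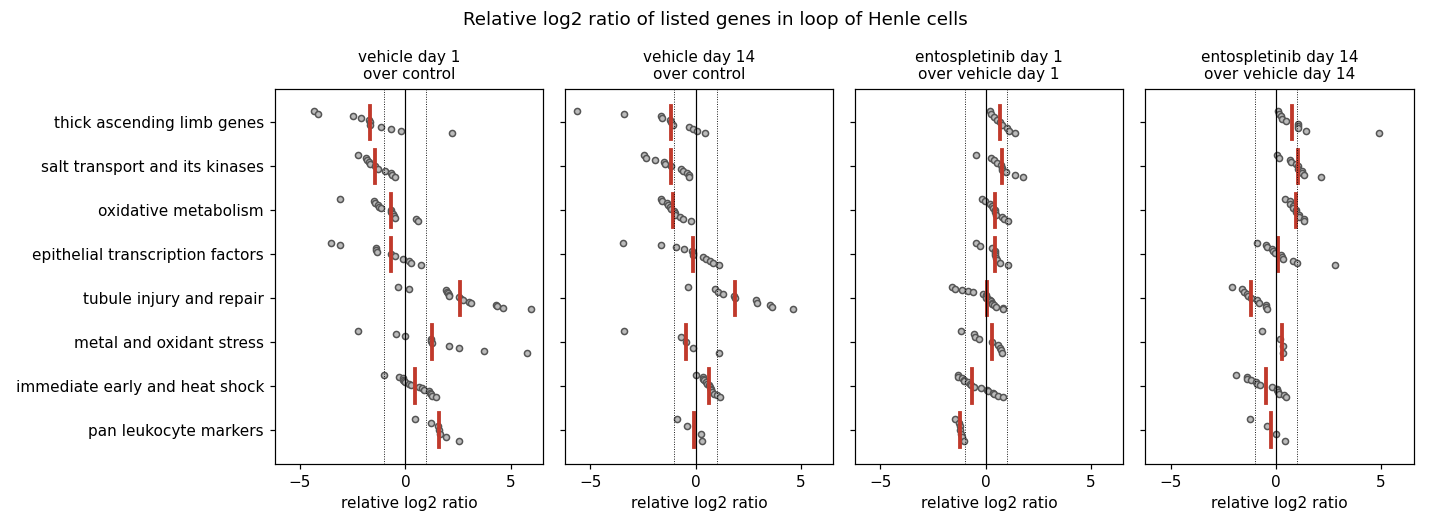
Relative log2 ratio (x axis) of genes in 8 lists (rows) in loop of Henle cells for 4 comparisons (panels). Points are genes and red bars the list medians, genes used by the rule are left out, and dotted lines mark 2-fold; the median of tubule injury and repair is 2.59 at day 1 in vehicle over control and -1.18 at day 14 for entospletinib over vehicle.

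*Lcn2* was seen in part of the members. A count of it was present in 119 of 211 members of vehicle day 1, 96 of 164 of entospletinib day 1, 24 of 66 of vehicle day 14 and 11 of 170 of entospletinib day 14. In vehicle day 14 the 24 members with *Lcn2* held 1645 CPM of *Slc12a1* and 1835 CPM of *Clu*, against 4109.6 and 672 CPM in the 42 without. For *Slc12a1*, a rule gene, the order was the other way in vehicle day 1, at 1093 CPM with and 685 CPM without *Lcn2*, where the thick ascending limb genes outside the rule summed to 2376 and 1300.4 CPM. General leukocyte markers differed between the same cells, at 2206 CPM with and 4416 CPM without *Lcn2* in vehicle day 1 and 569.5 and 1179 CPM in vehicle day 14, and their part was not tested. With each member thinned to 1000 counts (39, 20, 7 and 27 shallower members left out), the share with *Lcn2* was 30.2% in vehicle day 1, 36.8% with entospletinib at day 1, 11.9% in vehicle day 14 and 2.10% with entospletinib at day 14. Leukocytes, in which neutrophils express the gene, had a count in 19.97% of cells in vehicle day 1 and 1.35% in vehicle day 14. Members with *Lcn2* had more counts in vehicle day 14 (median 5164 against 3564.5), vehicle day 1 (4241 against 2079) and entospletinib day 14 (4580 against 1710), and fewer in control, where 6 members held it (2346.5 against 4167). The 42 members of vehicle day 14 without *Lcn2* still held 4879 CPM of *Spp1* and 36.6 CPM of *Esrrb*, against 694 and 314 CPM in control members without it. In entospletinib day 14 the 159 members without *Lcn2* held 211 CPM of *Esrrb* and 2084 CPM of *Spp1*.

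The nearest classes in the same pools were distal tubule and collecting duct cells (979) and proximal tubule cells (1527), and their levels are given without a test. In vehicle day 1, *Lcn2* was at 553 CPM in loop of Henle cells, 134 CPM in distal and 14.5 CPM in proximal cells. *Spp1* was at 18297, 8361 and 3261 CPM, and *Clu* at 2831, 3339 and 64.7 CPM. *Clu* was therefore higher in distal cells than in the loop. At day 14 in vehicle *Cp* was at 165 CPM in the loop and 495 CPM in proximal cells, and *Dcdc2a* at 562, 465 and 221 CPM in loop, distal and proximal cells. *Esrrb* moved likewise in distal cells, from 276 CPM in control to 3.55 CPM in vehicle day 14 and 178 CPM with entospletinib at day 14. The 18 thick ascending limb genes outside the rule were summed in control, vehicle day 1, vehicle day 14 and entospletinib day 14. In distal cells the sums were 3486, 1546, 1979 and 3114 CPM, and in the members 4322, 2049.6, 2233 and 3703 CPM. In proximal cells they were 367, 264, 573 and 332 CPM.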

How the data were processed

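Single-cell RNA sequencing was done by the authors on kidney cells sorted for live leukocytes, fixed and barcoded with the Parse Evercode kit. They processed the reads with the Parse pipeline on mm10, and the annotation release is not given in the sources used here. The matrix deposited by the authors holds raw counts, each a whole number of transcripts of 1 gene in 1 cell, not normalized. Conditions were read from their table of cells, since the labels describe each GEO sample as a mix. Which sublibrary belongs to which GEO sample was not determined.

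Counts of the members were summed by condition and by sublibrary. The rule, the gene lists and the named genes were chosen with earlier results of these data known, and several lists were first built with those results in view. Shares carry exact binomial (Clopper-Pearson) intervals and levels exact Poisson intervals at 95%. No doublet caller was run, and no cell was removed as a doublet. One alternative, that without the mitochondrial limit for day 7, was added after seeing the data, as were its gene and list values for the other comparisons. The ratio of shares without the limit for vehicle day 1 over control was planned. Work was done in Python 3.11.15 (numpy 2.4.6, scipy 1.17.1, pandas 2.3.3, matplotlib 3.10.9), and TMM scaling was tried with edgeR 4.0.16 under R 4.3.3. Promoters came from RefSeq on GRCm38.p6. Some genes of the lists are not reported here by name.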

Additional observations from a re-analysis of the deposited data

Results flagged for a closer look

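The share of loop of Henle cells in sublibrary s6 of entospletinib day 7 was 1.48%, far below the other 7 sublibraries of that condition (its gap to the next lowest was 0.582 of the whole range, past Dixon's 95% critical value for 8 values). Chance gives such a gap in about 1 of 20 groups of values, and 7 groups were looked at.

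Cells above the mitochondrial limit that otherwise match the marker rule numbered 740. The main comparisons leave them out, and they enter those given without the limit. They held 2542 CPM of the thick ascending limb genes outside the rule, against 3436 CPM in the members.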

How the results depend on the processing

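The ratios of shares depended most on the cells counted. Over the 3 tubule classes alone they were 0.61, 0.88, 0.81 and 0.11 for vehicle day 1 over control, vehicle day 14 over control, and entospletinib over vehicle at days 1 and 14, against -0.82, -2.11, 0.32 and 1.87 over all cells. For vehicle day 1 over control the ratio was -1.56 without the mitochondrial limit, -1.41 with a marker sum of at least 10, -1.39 in cells thinned to 1000 counts and -1.35 in members with at most 1 leukocyte marker count. For entospletinib day 14 over vehicle it was 3.11 in cells with at least 1500 counts and 3.03 in thinned cells.

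Genes past 2-fold numbered 654, 360, 246 and 252 in the 4 comparisons, in the same order. With at least 50 CPM the first 3 were 1191, 601 and 502, and with at least 200 CPM the 4 were 333, 148, 97 and 99. Members with at most 1 leukocyte marker count gave 106 for entospletinib day 1, and thinning to 1500 counts gave 136 for vehicle day 14 and 81 for entospletinib day 14. In the first of these settings 1768 genes were compared against 1930. There 7 of the 173 genes lower in all members were still compared and lower past 2-fold. After thinning, genes compared numbered 842 against 1853 for vehicle day 14 and 503 against 1768 for entospletinib day 14. The salt transport median, with *Slc12a1*, was -1.23 for vehicle day 1 over control in members with at most 1 leukocyte marker count, and after thinning -0.61 for vehicle day 14 over control and 0.56 for entospletinib day 14. The injury median of vehicle day 14 over control was 2.95 with at least 200 CPM, 2.61 with at most 1 leukocyte marker count and 2.51 with a marker sum of at least 10. More genes entered at 50 CPM and fewer at 200 CPM, and the cause of the other shifts was not tested.

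Leaving out each sublibrary in turn gave share ratios of -0.939 to -0.7442, -2.274 to -2.01, 0.2157 to 0.3872 and 1.761 to 2.012, and 592 to 709, 343 to 391, 210 to 297 and 215 to 263 genes past 2-fold. List medians were -2.035 to -1.433, -1.252 to -1.029, 0.5301 to 0.897 and 0.3997 to 0.8092 for thick ascending limb genes, -1.651 to -1.362, -1.427 to -1.151, 0.668 to 0.859 and 0.9389 to 1.1 for salt transport with *Slc12a1*, and 2.472 to 2.813, 1.777 to 2.228, 0.02765 to 0.2345 and -1.361 to -0.9725 for injury. Without sublibrary s7 the median of macrophage and monocyte markers in vehicle day 1 over control turned to -0.2549, and it was highest without s1, at 1.499.

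In members with at most 1 leukocyte marker count, genes reversed in vehicle day 1 over control were *Csf1r* (-0.51), *Cxcr2* (-3.30), *Fcer1g* (-1.67), *H2-Ab1* (0.13), *Hsph1* (0.32), *Slc14a2* (0.0044), *Syk* (-0.21), *Thbs1* (-0.46) and *Vcan* (-0.13). These members were chosen for few leukocyte counts, so ratios of leukocyte genes in them rest on few counts. No rise or fall is read from such ratios. In the same setting, genes reversed in entospletinib day 1 over vehicle were *Antxr2* (0.066), *Csf3r*, *Cxcl2*, *Plaur* and *Slc7a11* (0.34 each), *Lyn* (0.42), *Lyz2* (0.64), *Syk* (0.52), *Tyrobp* (0.58) and *Vcan* (0.63). The limit of few counts holds for these ratios too, and no rise or fall is read from them. With a marker sum of at least 10, *Cd74* (0.049) and *Srgn* (0.018) reversed in entospletinib day 14 over vehicle. No paired analysis was possible because each condition is 1 pool.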
